A study of Mus musculus with 4 samples.

Results

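The 40 genes described here are a fixed list of cell cycle transcripts, found by symbol among the 32285 genes of the count tables, and all 40 were present. By their roles, 26 act in the approach to and passage through mitosis, 11 act in DNA replication, and 3 belong to neither set (the G1 cyclins Ccnd1 and Ccne1, and Stmn1). Their transcripts were counted on Visium sections, where a spot collects the RNA of a small region that can hold several cells. The tissue was fresh frozen kidney of male mice on the C57BL/6J background, cut at 10 µm. There were 2 sections of Uox_KO mice and 2 Control sections of wild-type mice. In the Uox_KO mice a commercial breeder removed exons 2 to 4 of Uox, the gene of the enzyme that degrades uric acid, which makes them a model of hyperuricemia. The titles number the mice 1 and 2 within each group. Each section counted as 1 replicate, so n was 2 in either group, the p-values measure the spread between these sections only, and neither the age of the mice nor the litters are given.

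A dividing cell passes through G1, in which D and E cyclins lift the block that the RB proteins place on E2F transcription factors. In S phase the MCM helicase opens the DNA and polymerases copy it with nucleotides supplied by ribonucleotide reductase and thymidylate synthase, and CDK1 with cyclins A and B then drives the cell through G2 into mitosis. Transcripts of the mitotic set are made mainly in G2 and M and are destroyed after division, so they are low in resting tissue. Helicase, PCNA and nucleotide genes also serve repair and are kept at some level in cells that are not dividing. The adult kidney tubule divides rarely at rest. After damage, surviving tubule cells re-enter the cycle, and macrophages and stromal cells can divide in the same tissue. In sums over spots, more cells of a type and more RNA per cell cannot be told apart.

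The Control sections held 93524222 and 107962997 unique molecular identifiers (UMIs, counted transcripts) and the Uox_KO sections 53897511 and 57230517 in total. The median spot had 37386 and 32038.5 against 16674 and 19599.5 UMIs. Uox itself had 0 UMIs in all sections, so these data do not check the genotype. Spots rich in fat or urothelium transcripts numbered 2 and 17 in Control but 323 and 309 in Uox_KO. Of all the cell type markers listed, kidney tubule and glomerulus included, only 1, a urothelium gene, had 0 UMIs in both Control sections. Injured tubule transcripts summed over 12 markers went from 1089 and 1259 to 8945 and 8701 CPM, Control first and Uox_KO second. Likewise, 15 macrophage and myeloid markers went from 135 and 123 to 1519 and 1259.5 CPM and 12 stroma and matrix markers from 141 and 123 to 1520.4 and 1197 CPM. The sum of 12 T and NK cell markers went from 11.4 and 10.6 to 65.8 and 58.5 CPM and that of 12 markers of the S1 and S2 proximal tubule from 12409 and 11962 to 5417 and 6087 CPM. CPM are UMIs per 1000000 UMIs of a section after TMM scaling, which sets most genes of the sections to a common level, and plain CPM are the same without that scaling. Neither is divided by transcript length. Among further lists, red blood cell markers went from 5881 and 5486 to 252 and 736 CPM and intercalated cell markers from 417 and 534 to 78.7 and 168 CPM. Distal convoluted and connecting tubule markers went from 1336 and 1639 to 472 and 967 CPM, so the Uox_KO sections also differed from each other. The part of these tissue differences in the whole-section values of the 40 genes was not tested, and the values in restricted spots are given further on. Of the barcodes, 1713 of 3936 occurred in all 4 sections, since the spot barcodes are those of the printed array.

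The first comparison asked which of the 40 genes differed between kidneys with and without urate oxidase. In Uox_KO, 25 of 26 mitosis genes, 10 of 11 replication genes and all of Ccnd1, Ccne1 and Stmn1 rose, and none fell. The mitosis genes rose with a median log2 fold change of 2.86 and the replication genes with a median of 0.60. Most mitosis genes started from lower levels than most replication genes, but the sets overlapped. In Control, Mcm5 had 1.72 and 1.80 CPM and Nusap1 had 2.69 and 2.38 CPM. The part of the starting level in the difference between the sets was not tested. Only Cenpe and Tk1 did not pass the test. All 40 genes passed the filter on low counts. Across the 16369 genes tested, 34.6% were called higher and 32.5% lower, and both Uox_KO sections lay above both Control sections for 43.1% of genes and for 38 of the 40 members. The test was edgeR's quasi-likelihood F test with Benjamini-Hochberg adjustment over all genes, called at an adjusted p under 0.05. With library totals in place of TMM the median of all genes moved to 0.27, and 8156 genes were higher and 2926 lower in place of 5665 and 5325, while the same numbers of members were called. No member was measured as a protein, and no cell was counted as dividing.

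**Figure D1:**
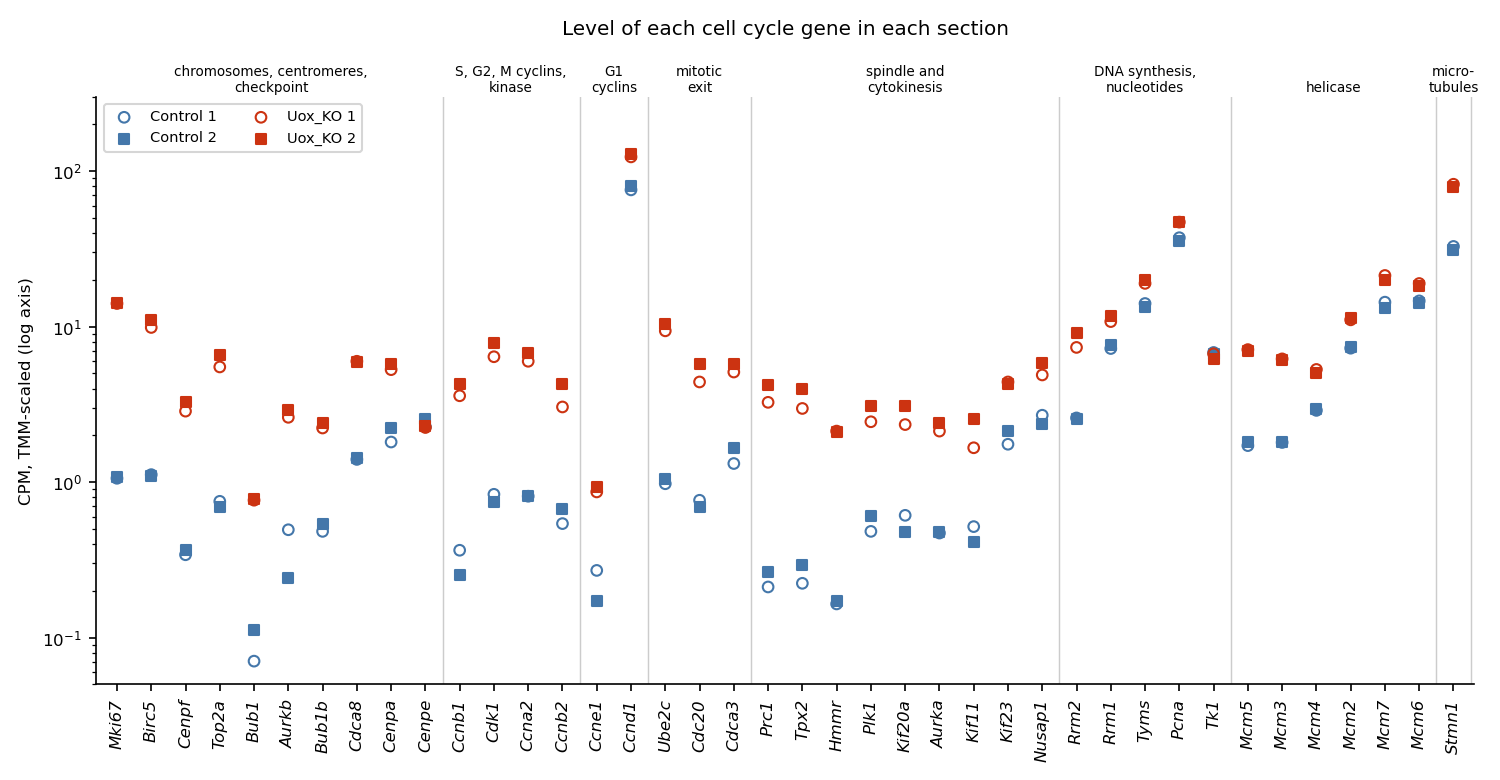
The level of each of the 40 genes in each section, in CPM on a log axis, grouped by role and ordered within a role by fold change; open and filled symbols are the first and second section of a group. The Uox_KO symbols stand far above the Control symbols for most mitosis genes, lie closer for the replication genes on the right, and meet them at Cenpe and Tk1.

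Among the cyclins of S, G2 and M phase and their kinase, all 4 rose. Ccnb1, whose product cyclin B1 carries CDK1 into mitosis, was 0.365 and 0.253 CPM in the Control sections and 3.59 and 4.30 CPM in the Uox_KO sections (log2 fold change 3.68 ± 0.22 standard error, adjusted p 1.8e-05). Cdk1 was 0.835 and 0.748 CPM in the Control sections and 6.40 and 7.90 CPM in the Uox_KO sections (log2 fold change 3.18 ± 0.16 standard error, adjusted p 1.0e-05). Ccna2, the cyclin of S phase and G2, was 0.812 and 0.819 CPM in the Control sections and 5.99 and 6.82 CPM in the Uox_KO sections (log2 fold change 2.97, adjusted p 7.5e-06), and Ccnb2, the second B cyclin, had 0.541 and 0.668 against 3.04 and 4.27 CPM (log2 fold change 2.59). In each of the 4 the lowest Uox_KO section was several times the highest Control section, and the pairs did not overlap. In Control these genes rested on 25 to 81 UMIs a section, and in Uox_KO on 183 to 487.

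Of the 10 genes of chromosomes, centromeres and the spindle checkpoint, 9 rose, with a median log2 fold change of 2.98 over all 10. Mki67, which codes for the surface coat of mitotic chromosomes and is the common marker of cycling cells, was 1.06 and 1.07 CPM in the Control sections and 14.1 and 14.3 CPM in the Uox_KO sections (log2 fold change 3.73 ± 0.10 standard error, adjusted p 1.3e-06). Birc5, for the survivin subunit of the chromosomal passenger complex, was 1.12 and 1.09 CPM in the Control sections and 9.88 and 11 CPM in the Uox_KO sections (log2 fold change 3.24). Top2a, the topoisomerase that untangles sister chromatids, was 0.753 and 0.688 CPM in the Control sections and 5.51 and 6.59 CPM in the Uox_KO sections (log2 fold change 3.07). The kinetochore gene Cenpf had 0.341 and 0.364 against 2.86 and 3.30 CPM. The spindle checkpoint kinase genes Bub1 and Bub1b had 0.0706 and 0.111 against 0.765 and 0.779 CPM and 0.482 and 0.536 against 2.23 and 2.40 CPM, in that order, and Bub1 in Control rested on 6 and 11 UMIs. Aurkb, the kinase of the passenger complex, had 0.494 and 0.243 against 2.61 and 2.89 CPM, and its partner Cdca8, for borealin, 1.40 and 1.43 against 5.99 and 5.96 CPM. Cenpa, the histone H3 variant that marks centromeres, rose least of the 9 (1.81 and 2.24 against 5.29 and 5.76 CPM, log2 fold change 1.44). Cenpe, a kinesin of the kinetochore, did not follow: it was 2.27 and 2.55 CPM in the Control sections and 2.25 and 2.29 CPM in the Uox_KO sections (log2 fold change -0.09 ± 0.14 standard error, adjusted p 0.590), so the groups overlapped.

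All 9 spindle and cytokinesis genes rose, from 1.08 for Nusap1 to 3.96 for Prc1 in log2 fold change. Prc1, which bundles the microtubules of the central spindle, had the largest rise of the 40 genes, from 0.212 and 0.263 CPM to 3.26 and 4.24 CPM (standard error 0.23, adjusted p 1.7e-05), on 18 and 26 UMIs in Control and 196 and 261 in Uox_KO. Tpx2, which activates Aurora A on the spindle, was 0.223 and 0.293 CPM in the Control sections and 2.98 and 3.99 CPM in the Uox_KO sections (log2 fold change 3.73), and Hmmr, for a spindle-associated hyaluronan receptor, had 0.165 and 0.172 against 2.13 and 2.11 CPM (log2 fold change 3.64). Aurka, the Aurora A kinase itself, Plk1, the polo kinase, and the motor genes Kif11 and Kif20a lay between 2.19 and 2.33. Kif23, a motor of the cleavage furrow, and Nusap1, a microtubule bundler, began higher, at 1.75 and 2.14 against 4.41 and 4.27 CPM and 2.69 and 2.38 against 4.89 and 5.83 CPM, and rose by 1.15 and 1.08 on the log2 scale. All 3 genes of mitotic exit and protein turnover rose. Ube2c, a ubiquitin-conjugating enzyme of the anaphase-promoting complex, had 0.976 and 1.04 against 9.40 and 10.4 CPM (log2 fold change 3.29). Cdc20, an activator of that complex, had 0.765 and 0.688 against 4.41 and 5.73 CPM and Cdca3 1.32 and 1.65 against 5.11 and 5.76 CPM.

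All 6 genes of the replicative helicase rose, but unevenly, although their products form 1 ring. Mcm5 was 1.72 and 1.80 CPM in the Control sections and 7.12 and 7.0 CPM in the Uox_KO sections (log2 fold change 2.00 ± 0.11 standard error, adjusted p 1.3e-05), and Mcm3 was 1.80 and 1.82 CPM in the Control sections and 6.21 and 6.10 CPM in the Uox_KO sections (log2 fold change 1.76 ± 0.11 standard error, adjusted p 2.2e-05). Mcm6, by contrast, was 14.6 and 14.2 CPM in the Control sections and 18.9 and 18.3 CPM in the Uox_KO sections (log2 fold change 0.37, adjusted p 0.00195), with Mcm7 at 14.4 and 13.2 against 21.3 and 19.9 CPM, Mcm2 at 7.27 and 7.36 against 11.1 and 11.3 CPM and Mcm4 at 2.89 and 2.93 against 5.31 and 5.05 CPM. Mcm5 and Mcm3 thus rose several-fold and the others by far less, with no overlap of the groups in any of the 6. Of the genes of DNA synthesis and nucleotide supply, 4 of 5 rose. Rrm2, the ribonucleotide reductase subunit that is limited to S phase, was 2.59 and 2.55 CPM in the Control sections and 7.35 and 9.17 CPM in the Uox_KO sections (log2 fold change 1.69), while its partner Rrm1 was 7.23 and 7.60 CPM in the Control sections and 10.8 and 11.7 CPM in the Uox_KO sections (log2 fold change 0.60). Pcna, the sliding clamp, was 37.3 and 35.4 CPM in the Control sections and 47.0 and 47.3 CPM in the Uox_KO sections (log2 fold change 0.38, adjusted p 0.00101), and Tyms, thymidylate synthase, had 14.1 and 13.3 against 19.0 and 20 CPM (log2 fold change 0.51). Tk1, the cytosolic thymidine kinase, was 6.82 and 6.72 CPM in the Control sections and 6.69 and 6.22 CPM in the Uox_KO sections (log2 fold change -0.07 ± 0.09 standard error, adjusted p 0.512): both Uox_KO sections lay slightly below both Control sections, and the test did not call it. The annotated span of Tk1 overlaps that of Afmid in the RefSeq table. In all, the spans of 12 members overlap another gene, the others being Top2a, Ccna2, Ccnd1, Cdc20, Aurka, Kif11, Kif20a, Nusap1, Prc1, Tpx2 and Mcm7. Whether the authors' counting used the strand is not given in the sources used here, so reads of these genes and their neighbours may not be told apart.

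Outside both sets, Ccnd1, for cyclin D1, was 75.8 and 80.5 CPM in the Control sections and 124 and 129 CPM in the Uox_KO sections (log2 fold change 0.69 ± 0.06 standard error, adjusted p 1.0e-04). Ccne1, for cyclin E1, was 0.271 and 0.172 CPM in the Control sections and 0.865 and 0.925 CPM in the Uox_KO sections (log2 fold change 2.03, standard error 0.28). Stmn1, which codes for the microtubule destabiliser stathmin, was 32.8 and 30.9 CPM in the Control sections and 82.4 and 79.1 CPM in the Uox_KO sections (log2 fold change 1.34, adjusted p 6.9e-06).

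Because the members of a set moved together, the 250 bases before the first RefSeq start listed for each gene were searched for the motifs known in cell cycle promoters. In background, the CHR element (searched as TTTGAA and as its variant TTTAAA) is bound by the MuvB complexes of G2 and M genes, the CCAAT box by NF-Y, and E2F sites are known from genes of S phase. The E2F words searched were TTCCCGC and its variants, which were first TTGGCGC, then also TTCGCGC, and last of all TTGCCGC. Both strands were searched, and an E2F word and a CCAAT box can share bases. RefSeq's table for GRCm38.p6 held 33 of the 40 members, without Ccna2, Ccnd1, Aurkb, Kif20a, Tpx2, Mcm4 and Stmn1. A CHR was found for 12 of 22 mitosis genes, 3 of 10 replication genes and 25.5% of 27025 genes in the table. A CCAAT box was found for 20 of 22, 8 of 10 and 34.5%, and an E2F word for 4 of 22, 5 of 10 and 7.97%. A match describes the letters only. The sequences show, for each set, the gene with the largest rise, the one with the smallest called rise and the one not called, among genes with a single listed start. They run 5′ to 3′ on the strand of the gene, with the motif matches in capitals. Mki67 (chr7:135716380-135716629, minus strand) has 2 CHR, 3 CCAAT boxes and 1 E2F word, Nusap1 (chr2:119618048-119618297, plus strand) has no match, and Cenpe (chr3:135212313-135212562, plus strand) has 1 CCAAT box. Mcm5 (chr8:75109259-75109508, plus strand) has 3 E2F words, 2 CCAAT boxes and 1 CHR, Mcm6 (chr1:128359706-128359955, minus strand) has 4 E2F matches and 2 CCAAT boxes, and Tk1 (chr11:117826015-117826264, minus strand) has 1 CHR. No other sequence is shown, and 2 of the 33 genes have more than 1 listed start. For Mki67, Mcm5 and Tk1 the listed start lies inside the annotated span of the gene, so the last bases of these sequences fall within that span.

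Mki67: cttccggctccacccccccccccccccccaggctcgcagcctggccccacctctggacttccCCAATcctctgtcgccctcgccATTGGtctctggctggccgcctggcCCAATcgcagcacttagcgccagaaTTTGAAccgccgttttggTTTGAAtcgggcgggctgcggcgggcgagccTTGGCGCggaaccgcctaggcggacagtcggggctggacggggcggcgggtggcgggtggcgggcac

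Nusap1: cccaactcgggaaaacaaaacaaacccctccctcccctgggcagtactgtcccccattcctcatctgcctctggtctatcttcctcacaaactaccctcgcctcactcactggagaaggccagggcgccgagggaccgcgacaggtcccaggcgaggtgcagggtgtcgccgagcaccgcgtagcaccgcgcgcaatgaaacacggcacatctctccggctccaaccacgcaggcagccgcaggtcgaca

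Cenpe: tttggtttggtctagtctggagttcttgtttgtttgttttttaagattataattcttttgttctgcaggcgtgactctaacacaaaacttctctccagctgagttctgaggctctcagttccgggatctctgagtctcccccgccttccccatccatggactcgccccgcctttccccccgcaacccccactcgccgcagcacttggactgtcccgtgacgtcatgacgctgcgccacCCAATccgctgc

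Mcm5: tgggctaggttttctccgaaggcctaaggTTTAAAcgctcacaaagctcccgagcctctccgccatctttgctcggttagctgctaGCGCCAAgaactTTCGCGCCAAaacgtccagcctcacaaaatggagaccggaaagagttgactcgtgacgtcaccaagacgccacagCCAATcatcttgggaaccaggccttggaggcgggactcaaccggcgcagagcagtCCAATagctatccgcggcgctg

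Mcm6: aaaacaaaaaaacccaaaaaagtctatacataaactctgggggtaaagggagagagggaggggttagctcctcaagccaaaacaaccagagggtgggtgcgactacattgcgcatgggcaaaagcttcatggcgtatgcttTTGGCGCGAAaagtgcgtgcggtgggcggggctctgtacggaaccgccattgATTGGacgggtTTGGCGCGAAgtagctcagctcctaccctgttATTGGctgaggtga

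Tk1: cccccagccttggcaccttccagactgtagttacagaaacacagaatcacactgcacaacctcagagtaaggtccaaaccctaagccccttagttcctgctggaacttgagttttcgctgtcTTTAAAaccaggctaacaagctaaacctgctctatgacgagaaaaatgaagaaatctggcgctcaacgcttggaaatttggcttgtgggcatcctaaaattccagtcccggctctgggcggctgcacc

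Of the genes shown, the uncalled Cenpe and Tk1 hold 1 match each, but Nusap1, which was called higher, holds none. Mcm6, with 4 E2F matches, in 2 places where words on opposite strands overlap, was the replication gene with the smallest called rise. Of the genes not shown, Prc1, Kif23, Bub1b and Pcna hold 1 CCAAT box each and Tyms no match, and all were called higher. Other called genes, such as Mki67 and Mcm5, hold several matches. A link between matches and calls was not tested.

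The second comparison set the mitosis genes against the replication genes. Summed over the 26 genes, mitosis transcripts were 22.5 and 23.4 CPM in Control and 116 and 132 CPM in Uox_KO, and summed over the 11 genes, replication transcripts were 111 and 107 CPM in Control and 161 and 162 CPM in Uox_KO. In means over 2 sections these are 23.0 ± 0.613 to 124 ± 11.6 CPM (SD), a 5.39-fold difference, and 109 ± 2.82 to 161 ± 0.908 CPM, a 1.48-fold difference. The mitosis to replication ratio was 0.203 and 0.219 in Control and 0.719 and 0.814 in Uox_KO, so the ranges of the genotypes lay apart by more than the sections of a group. In absolute terms the mitosis genes added 101 CPM and the replication genes 52.7 CPM. These are descriptions of a chosen list and carry no p. The log2 fold changes ran from -0.09 to 3.96 for mitosis and from -0.07 to 2.00 for replication, against a median of 0.00 for all genes tested, so that 21 of 26 mitosis genes rose more than the highest replication gene.

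The same test was run on the Uox_KO and Control spots whose cell type levels lay at or below the 90th percentile of Control spots. For the myeloid list this kept 215 and 329 Uox_KO spots, for the stroma list 190 and 358 and for the injured tubule list 443 and 505. Over the 3 lists these were 7.2% to 19.5% of the spots of a Uox_KO section, against 89.1% to 91.3% of a Control section. A small, selected part of the Uox_KO tissue was thus set against most of the Control tissue. The kept Uox_KO spots had medians of 24522 to 32498.5 UMIs. In the kept spots the list itself was still higher in Uox_KO. There, summed myeloid markers were 98.0 and 92.5 in Control and 167 and 172 in Uox_KO in plain CPM, and injured tubule markers 779 and 869 against 1518 and 1515. Most mitosis genes were higher in Uox_KO in these spots too, while the median of the replication genes lay near 0. Summed mitosis levels there were 19.2 to 20.6 plain CPM in Control and 37.6 to 56.9 in Uox_KO over the 3 lists, and summed replication levels 96.1 to 99.4 and 99.1 to 109. With the myeloid list held low, 17 of 26 mitosis genes were called higher, at a median of 1.87, where 20% of all genes were called higher and 17.8% lower. Of 11 replication genes 4 were called higher and 2 lower, at a median of 0.21. With the stroma list held low, the counts were 21 of 26 higher with a median of 1.80 (background 19.2% higher, 16.8% lower). For replication they were 3 of 11 higher and 1 lower, median 0.07. With the injured tubule list held low, 14 of 25 tested mitosis genes were higher and 1, Cenpe, was lower (median 1.42, background 27.1% higher and 25.4% lower). Bub1 was not tested there. In these spots 3 of 11 replication genes were higher and 2 lower (median 0.12).

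Named genes show how far the sets came apart in the kept spots. Mki67 was called higher in all 3 restrictions, with a log2 fold change of 2.58, adjusted p 5.4e-05 for the myeloid, 2.76, adjusted p 2.2e-05 for the stroma and 2.41, adjusted p 3.4e-05 for the injured tubule list. Tpx2, Prc1, Hmmr, Ccnb1, Birc5, Ube2c, Cdk1, Cdc20, Cenpf, Top2a and Ccna2 were also called higher in all 3. Among replication genes, Mcm5 (0.77, 0.91 and 0.75) and Tyms (0.59, 0.74 and 0.44) were higher in all 3, in the order myeloid, stroma, injured tubule. Mcm6 turned to -0.48, -0.23 and -0.41, called lower in the first and the last, and Tk1 was called lower in all 3 (-0.50, -0.50 and -0.77). Kif23 was at -0.00027 and Ccnd1 at 0.00 where the injured tubule list was low. The 3 restrictions share sections and many spots.

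**Figure D2:**
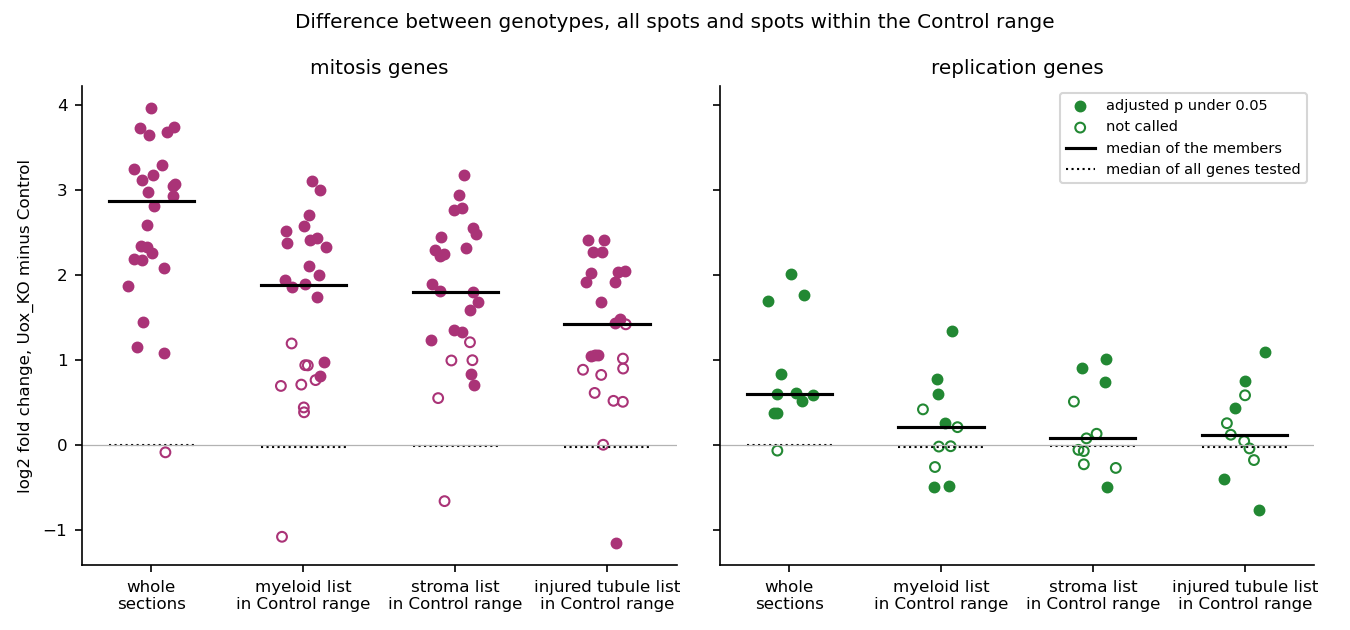
The log2 fold change of Uox_KO over Control for each mitosis gene (left) and replication gene (right), over whole sections and over spots whose myeloid, stroma or injured tubule level lay within the Control range; filled points have an adjusted p under 0.05, bars are medians and dotted lines the median of all genes tested. The mitosis medians go from 2.86 to between 1.42 and 1.87, and the replication medians from 0.60 to between 0.07 and 0.21.

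Other cell cycle genes, listed by pathway, were read from the same whole-section fit. Of 124 tested, 82 rose and 11 fell, and the median log2 fold change was 0.69. The counts below stand beside 34.6% of all genes called higher and 32.5% lower. All 14 kinetochore and spindle checkpoint genes (median 1.77) and 15 of 16 mitotic motors and cytokinesis genes (median 2.63) were higher. On the replication side these were 13 higher and 1 lower of 19 replicative polymerase and clamp loader genes (median 0.32) and 6 higher and 2 lower of 12 tested origin licensing genes (median 0.37). Of the 13 genes of the anaphase-promoting complex, which serves outside division too, 2 were higher and 4 lower, so both shares were close to or below those of all genes. Condensin and cohesin genes had 8 of 12 higher and 1 lower, checkpoint and G2 entry kinases 6 of 10 higher and none lower, and genes of RB, E2F and MuvB transcription control 9 of 15 higher and 2 lower. Uhrf1, which carries DNA methylation through replication, had 0.576 and 0.607 against 5.87 and 6.33 CPM, and the DNA ligase gene Lig1 2.05 and 1.97 against 8.17 and 8.29 CPM, Control first. The GINS complex gene Gins2 had 1.21 and 1.03 against 5.26 and 5.11 CPM and the polymerase gene Pold1 3.69 and 4.14 against 10.1 and 10.1 CPM. E2f1, for a transcription factor of S phase genes, had 1.87 and 1.79 against 7.55 and 7.34 CPM (log2 fold change 2.02). The condensin gene Ncapg2, the spindle gene Ckap2l and the passenger complex gene Incenp had log2 fold changes of 2.43, 3.22 and 1.52.

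Members of both the promoting and the inhibiting genes of G1 were called higher, beside 34.6% of all genes. Of 6 G1 kinases and cyclins, 4 were higher and 1 lower, among them Ccnd2, for cyclin D2, at 5.62 and 4.99 against 26.7 and 24.2 CPM, and its kinase gene Cdk6 at 11.1 and 11.6 against 24.8 and 24.2 CPM. Of the 7 genes of CDK inhibitors, which hold cells out of the cycle, 5 were higher and none lower. Cdkn1a, for p21, was 4.73 and 4.89 against 26.9 and 31.8 CPM (log2 fold change 2.61, standard error 0.10, adjusted p 3.9e-06), and had the smallest p of the 124. Cdkn2b, for p15, had 0.318 and 0.455 against 5.21 and 4.16 CPM, Cdkn1b, for p27, 19.2 and 16.9 against 28.5 and 32.4 CPM and Cdkn2c, for p18, 14.4 and 13.7 against 18.9 and 24.2 CPM. Cdkn2a had 0 UMIs in both Control sections and 0.349 and 0.260 CPM in Uox_KO, at least 18.7-fold higher when Control is set to 3 counts over both sections, counting error only. Cdkn1c (7.63 and 8.67 against 6.59 and 9.06 CPM) and Cdkn2d (8.15 and 8.61 against 7.49 and 8.96 CPM) were not called.

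The share of spots with any transcript of a set was compared after each spot was thinned to 5000 UMIs, since Control spots were deeper. A mitosis UMI was found in 9.87% (95% interval 8.74 to 11.1) and 9.77% (95% interval 8.78 to 10.8) of Control spots and in 36.9% (95% interval 34.9 to 38.9) and 39.9% (95% interval 37.9 to 41.8) of Uox_KO spots, exact Clopper-Pearson intervals for counting error only. A replication UMI was found in 40.7% and 37.1% of Control spots and 54.5% and 52.8% of Uox_KO spots. Without thinning, the mitosis shares were 47.1% and 43.4% against 68.6% and 72.0%. The unthinned replication shares were 96.4% and 93.6% against 88.1% and 88.7%. Thinning left out 6 and 4 Control spots and 293 and 152 Uox_KO spots. An exact permutation test of 2 against 2 sections cannot go below 0.333, so none is given. In Uox_KO, replication transcripts were denser where mitosis transcripts were found. In the first Uox_KO section they were 149 plain CPM in thinned spots with 0 mitosis UMIs, 196 with 1 and 322 with 2 or more. In the second they were 140.2, 182 and 292. In Control the same steps were 103, 119 and 143 in the first section, and 92.9, 111 and 143. The last of these rest on 35 spots a section, with wide counting intervals (92.4 to 211 in both). Thinned to 2000 UMIs, the Uox_KO steps kept their order, at 157, 218 and 405 and at 161, 242 and 309. The Control steps were 105, 109 and 188 in the first section and 103, 95.1 and 0 in the second, which runs the other way, the last on 8 spots a section. No trend is read from Control.

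The third question was whether the 40 genes follow tubule, immune or stromal genes over Uox_KO spots. They were higher where injured tubule, myeloid, T and NK cell or stroma genes were high and lower where mature S1 and S2 proximal tubule genes were high, and few were called by endothelial genes. For each list the 25% of a section's spots with the highest list level (the rich spots) were summed and tested against its other spots by edgeR with the section as a block, over spots with at least 2000 UMIs. No member is on any list, and the 6 comparisons use the same spots. With 2 sections, each of these fits left 1 residual degree of freedom. Their small p-values thus lean on the spread shared over all genes and say little about variation between mice. In spots rich in injured tubule genes all 26 mitosis genes were higher (median log2 difference 1.05) and 10 of 11 replication genes (median 0.63), where 21.5% of all genes were called higher and 22.6% lower. In spots rich in myeloid genes these counts were 24 and 10 (medians 0.89 and 0.61, background 31.4% higher and 31.8% lower). In spots rich in T and NK cell genes they were 25 and 10 (medians 0.82 and 0.62, background 27.6% higher and 27.5% lower). When the richest 10% of spots were taken they were 17 and 7 (medians 0.66 and 0.51), where 3766 of 15221 genes were higher and 4035 lower. In spots rich in stroma genes they were 24 and 10 (medians 0.98 and 0.73, background 31.1% higher and 31.4% lower). In spots rich in S1 and S2 genes 25 of 26 mitosis genes and 9 of 11 replication genes were lower and Tyms was higher (medians -1.20 and -0.62, background 34.6% lower and 32.1% higher). With each gene of that list scaled to its mean, an alternative chosen after seeing the data, 17 mitosis genes and 8 replication genes were lower. The medians were then -0.64 and -0.45, and of 15023 genes 4379 were lower and 4150 higher. In spots rich in endothelial genes 3 mitosis genes were higher and 1 lower, and 2 replication genes higher and 1 lower (background 27.7% higher and 27.8% lower). The rich spots of the myeloid, T and NK, stroma and endothelium lists were shallower than the others (median 11745.5 against 19745.5 UMIs for myeloid in the first section), and those of the injured tubule and S1 and S2 lists deeper.

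Mki67 gave 23.6 against 12.1 CPM in the first section and 23.8 against 12.4 CPM in the second in injury-rich spots (log2 difference 0.95, adjusted p 1.7e-08). It had 25.3 against 14.9 CPM in the first section and 31.1 against 13.2 CPM in the second in myeloid-rich spots (log2 difference 1.01, adjusted p 4.2e-07), and 27.0 against 15.0 CPM in the first section and 31.9 against 13.4 CPM in the second in stroma-rich spots (log2 difference 1.05, adjusted p 1.5e-09). In S1 and S2-rich spots it was 8.74 against 15.9 CPM in the first section and 6.91 against 16.8 CPM in the second (log2 difference -1.07, adjusted p 6.6e-08). Both sections thus placed Mki67 on the same sides. Prc1 had the largest drop in S1 and S2-rich spots (log2 difference -1.88, adjusted p 5.4e-07) and one of the larger differences in injury-rich spots (log2 difference 1.31, adjusted p 2.2e-06). Of the replication genes, Mcm3 and Mcm5 differed most in myeloid-rich spots (1.31 and 1.16), and Pcna least among the called ones (0.33).

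Cenpe and Tk1, which were not called between whole sections, were called within Uox_KO. In injury-rich spots Cenpe was 3.63 against 1.97 CPM in the first section and 3.58 against 2.11 CPM in the second (log2 difference 0.82, adjusted p 0.00249). Tk1 was 9.54 against 6.58 CPM in the first section and 9.32 against 5.93 CPM in the second in these spots (log2 difference 0.59, adjusted p 6.3e-04). Tyms was not called in injury-, myeloid-, T and NK- or stroma-rich spots (21.6 against 23.8 CPM in the first section and 21.4 against 25.6 CPM in the second for myeloid). These calls depend on the setting. Tyms was called lower in myeloid-rich spots with the richest 10%, with at least 5000 UMIs and without fat- or urothelium-rich spots (-0.30, -0.23 and -0.25). It was called lower in stroma-rich spots without fat- or urothelium-rich spots and with scaled lists (-0.25 and -0.31). With library totals it was instead called higher in the spots of all 4 lists, by 0.27 (injury) to 0.35 (myeloid). Tyms was higher in S1 and S2-rich spots (log2 difference 0.27, adjusted p 0.00368), where library totals in place of TMM turn its sign to -0.21. Ccnd1 differed in injury-rich spots (log2 difference 0.38, adjusted p 2.2e-05) but was not called in myeloid-, T and NK- or stroma-rich ones (0.10, 0.08 and 0.04). Stmn1 was higher in all 4 (0.83 in injury-rich, 0.40, 0.36 and 0.44 in myeloid-, T and NK- and stroma-rich spots). Bub1, with 46 and 48 UMIs in the Uox_KO sections, was called in injury-rich spots and not in the 3 others, and Ccne1 not in myeloid- or T and NK-rich spots. With library totals the median of all genes in these comparisons lay from -0.53 (S1 and S2) to 0.58 (stroma). The mitosis medians then became 1.44 (myeloid), 1.23 (T and NK), 1.53 (stroma) and -1.68 (S1 and S2), and the sign of Stmn1 in endothelium-rich spots turned from -0.26 to 0.02.

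**Figure D3:**
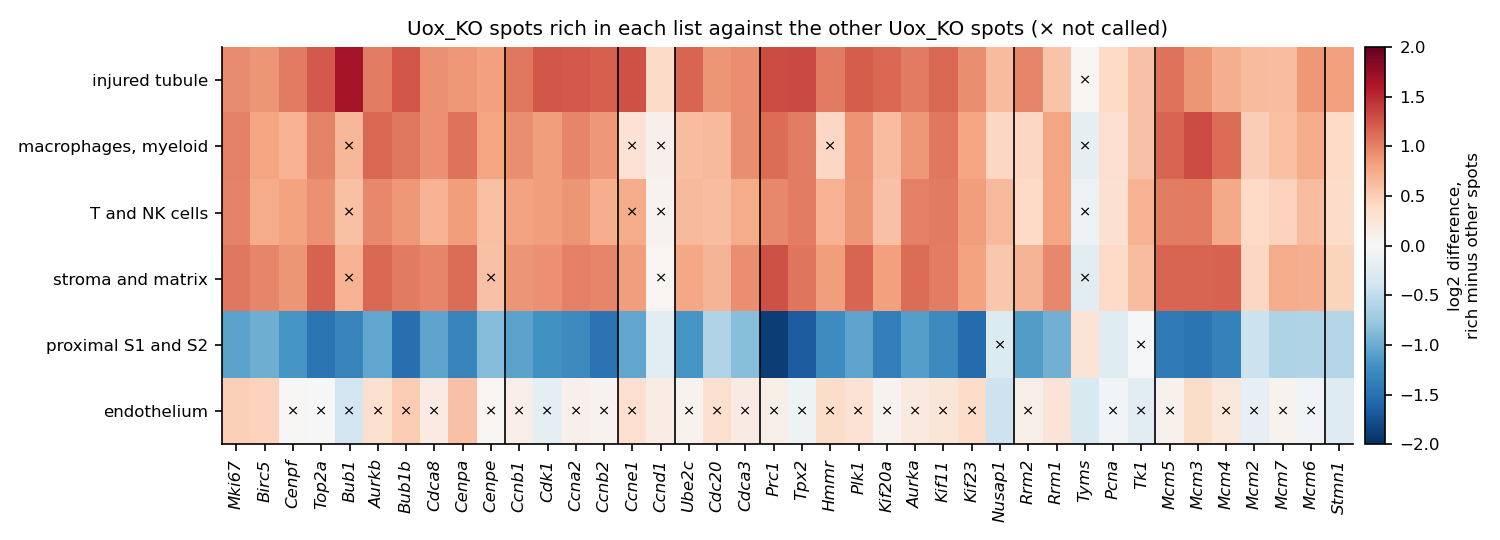
The log2 difference between Uox_KO spots rich in each of 6 lists (1 list per line of squares) and the other Uox_KO spots, for each of the 40 genes (grouped by role along the other axis); red is higher in rich spots, blue lower, and a cross marks an adjusted p of 0.05 or more. The lines of the injured tubule, myeloid, T and NK cell and stroma lists are red for nearly all genes, with Tyms uncalled on all 4 and Ccnd1 on all but the injured tubule line, that of S1 and S2 is blue except for Tyms, and that of endothelium is pale.

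A spot can be rich in several lists. Each section was also cut into 5 bins by list level, each of 20% of the spots. From the lowest to the highest bin of the injured tubule list, summed mitosis levels in plain CPM went from 39.9 and 47.0 to 217 and 251, first and second Uox_KO section, and replication levels from 103 and 99.9 to 249.9 and 263. Over the myeloid list mitosis went from 58.7 and 56.6 to 252 and 324, and over the stroma list from 59.6 and 57.0 to 271 and 371. Over the S1 and S2 list it went from 191 and 242 to 54.4 and 49.2. On the same scale the whole Control sections had 20.5 and 21.4 for mitosis and 101 and 97.8 for replication. The bin with the lowest mitosis level thus lay above both whole Control sections for each of the 4 lists, while replication levels in the lowest injury bin came near those of Control.

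**Figure D4:**
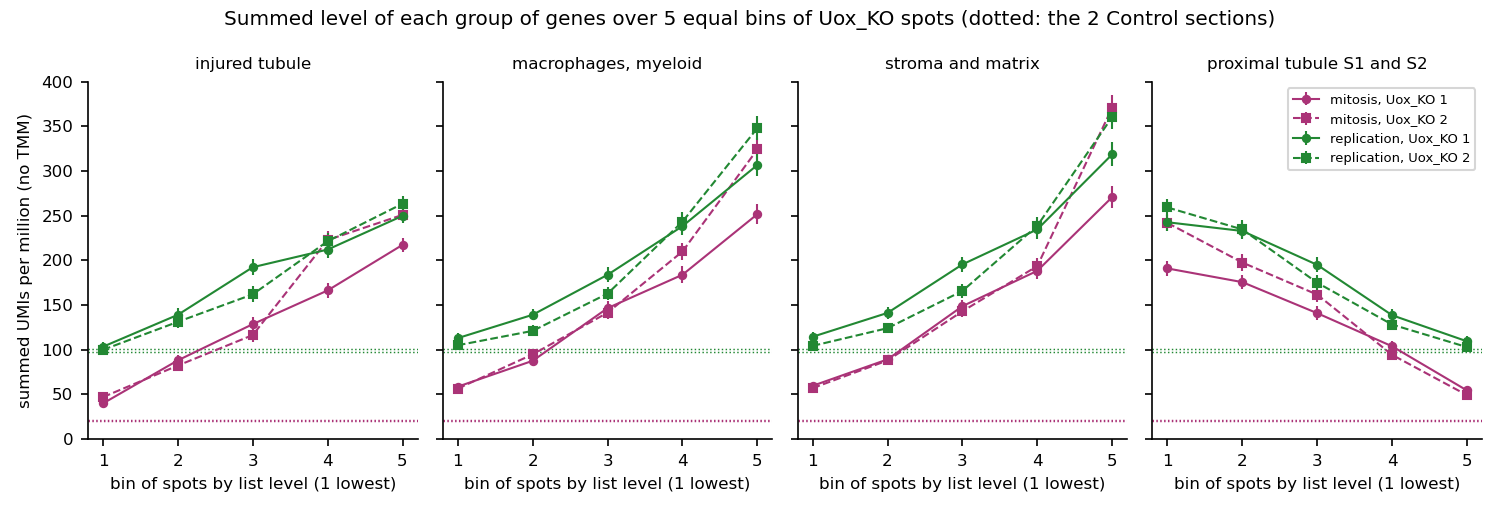
Summed levels of the mitosis and replication genes (no TMM scaling, as plain CPM) in 5 equal bins of Uox_KO spots ordered by 4 list levels, bin 1 the lowest, with exact Poisson 95% intervals that cover counting error only; dotted lines are the 2 Control sections. Both sets climb with the injured tubule, myeloid and stroma lists and drop with the S1 and S2 list, and where they are lowest the replication lines lie near the Control lines while the mitosis lines lie above theirs.

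The spots were then split at the section medians of 2 lists at a time. Mitosis levels in plain CPM were 49.1 and 51.4 where injured tubule and myeloid levels were both low, and 136 and 161 where injury alone was high. They were 140.3 and 133 where myeloid alone was high, and 227 and 267 where both were high. Replication levels were 108 and 102, 171 and 155, 199 and 186 and 275 and 290.1 in the same order. Each list thus went with higher levels where the other was low, in both sections, and mitosis levels were highest where both were high. For injury against stroma the mitosis values were 48.5 and 50.2 (both low), 128 and 139 (injury alone), 131 and 127 (stroma alone) and 248 and 297 (both high). For T and NK against myeloid they were 90.1 and 97.3 with the T and NK list alone high and 153 and 159 with the myeloid list alone high. With both low they were 74.6 and 80.5. Replication levels were 145 and 118 with the T and NK list alone high, 221 and 209 with the myeloid list alone high and 123 and 119 with both low. In the second section the T and NK list alone thus went with no higher replication level. Where S1 and S2 genes were high but myeloid genes too, mitosis levels were 144 and 135, and 67.5 and 71.7 where only the S1 and S2 genes were high. The list of injured tubule genes took 90.2% and 90.5% of its UMIs from Spp1 and Clu. With a list without these, an alternative chosen after seeing the data, mitosis values where injury alone was high were 153 and 174.

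**Figure D5:**
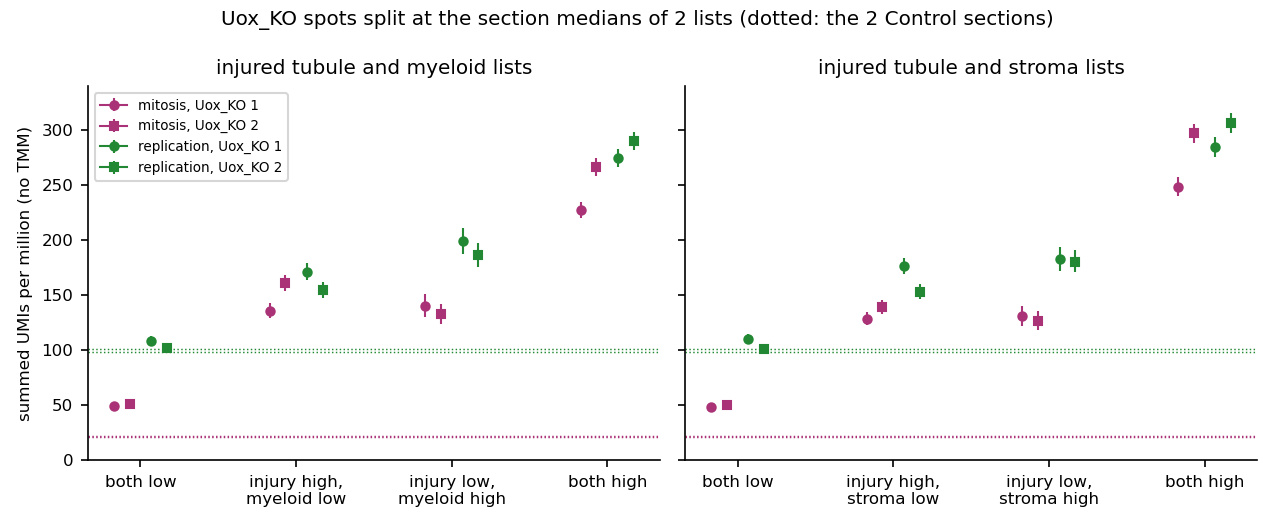
Summed levels of the mitosis and replication genes in Uox_KO spots, in plain CPM, split at the section medians of the injured tubule list and of the myeloid (left) or stroma (right) list, with exact Poisson 95% intervals that cover counting error only; dotted lines are the 2 Control sections. Spots with 1 list high lie between those with both low and those with both high, in both sections.

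Over single spots, the partial correlation of summed mitosis with summed replication levels, with the log of the spot's total UMIs held, was 0.37 and 0.39 in the Uox_KO sections and 0.10 and 0.10 in Control. In Uox_KO mitosis levels correlated with the myeloid list at 0.34 and 0.41, the stroma list at 0.34 and 0.41, the injured tubule list at 0.33 and 0.36, T and NK cells at 0.22 and 0.27, endothelium at 0.08 and 0.12 and S1 and S2 at -0.13 and -0.24. In the same order replication levels gave 0.38 and 0.44, 0.37 and 0.41, 0.30 and 0.32, 0.24 and 0.29, 0.07 and 0.12 and -0.17 and -0.26. Without fat- or urothelium-rich spots the mean over both sections for S1 and S2 moved from -0.19 to -0.36 for mitosis and from -0.21 to -0.38 for replication. These run over 2632 and 2582 spots that share a library and differ in depth, and describe sparse counts without a test. By the lower value of both sections, Ube2c and Mki67 were the mitosis members closest to the rest of the mitosis set (Mki67 0.37 and 0.38), while in the second section alone Birc5 was highest (0.30 and 0.41). Stmn1, a member of neither set, reached 0.35 and 0.41. Among other genes with at least 20 CPM, the 12 most like the summed mitosis level, by the lower partial correlation of the 2 Uox_KO sections, fell into a few groups. They were the actin genes Actb (0.39 and 0.46) and Actg1, the tubulin genes Tubb5 (0.39 and 0.42) and Tuba1b, the thymosin genes Tmsb10 and Tmsb4x, and Ptma. The others were the matrix genes Col1a1 (0.35 and 0.37), Sparc and Mgp, and the class II antigen presentation genes Cd74 (0.34 and 0.40) and H2-Eb1. For the summed replication level 10 of these returned, with Col1a2 and H2-Aa in place of Tuba1b and Cd74, led by Actb (0.42 and 0.47) and Tmsb10 (0.42 and 0.48).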

How the data were processed

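The data are UMI counts per gene and Visium spot, made and deposited by the authors with Space Ranger 1.3.1 on mm10, per the submitters' processing notes. Counts were summed per section. edgeR 4.0.16 in R 4.3.3 fitted the 4 sums (genes kept by filterByExpr, TMM scaling, quasi-likelihood F test, Benjamini-Hochberg adjustment over all genes), and the sums of list-rich and other Uox_KO spots with the section as a block. Spots under 2000 UMIs were left out of the spot comparisons. A list level is the sum of its markers' UMIs over the spot's total. Spots cover several cells, so no doublets were called. In a simulation over the 16369 genes of whole sections, changes were planted only in genes above a floor of counts. The test recovered 96% of these at 2-fold and 100% at 4-fold. Genes with few counts, such as Bub1 with 6 and 11 UMIs in Control, lay below that floor, so their recovery is not known. The planted changes were few and as many up as down, whereas 34.6% of genes were called higher and 32.5% lower in the data. The scaling between these sections was thus not tested by the simulation. Summed levels, bins and correlations were computed in Python 3.11.15 and carry no test.

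The 40 members and all marker and pathway lists were chosen with earlier results of these data known. Every member is named. Of other cell cycle genes, the 12 with the smallest p in the whole-section fit and every CDK inhibitor are named, and of all further genes the 12 with the highest likeness to each summed set. Spots were not placed on the tissue, since positions were not used here. Alternatives were DESeq2 1.42.0, other scalings, filters, spot sets and list definitions.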

Additional observations from a re-analysis of the deposited data

How the results depend on the processing

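The calls of the members in whole sections (25 mitosis and 10 replication genes higher) stood with DESeq2 and its size factors, library totals, no filter, equal section totals, a replicate block and every section left out in turn. Of single-gene results in whole sections, 796 kept their call or stayed uncalled, and 38 kept their sign but lost the call. Another 5 gained a call, and 12 results of called genes turned sign, with or without a call in the new setting. In list-rich spots these counts, in the same order, were 1145, 49, 43 and 3. Library totals left 2926 genes lower. In spots with the myeloid or stroma level in the Control range 3012 and 2856 genes were higher and 2684 and 2505 lower, with fewer spots and fewer genes tested. By the injured tubule range, 14 of 25 tested mitosis genes were called higher. Of 11 replication genes, 4, 3 and 3 were called higher by the myeloid, stroma and injured tubule ranges. Of all genes, 3012 of 15037, 2856 of 14880 and 4161 of 15337 were called higher in the same order. The replication share by the injured tubule range thus lay close to that of all genes. On 11 genes, no excess is read from the replication counts. In these spots signs turned for Kif23 (-0.00027, injured tubule), Rrm1 (-0.27, stroma), Mcm2 (-0.018 myeloid, -0.043 injured tubule), Mcm4 (-0.26 myeloid, -0.060 stroma, -0.18 injured tubule), Mcm6 (-0.48, -0.23 and -0.41 in that order) and Mcm7 (-0.022 myeloid, -0.075 stroma). The cause was not tested.

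The log2 change of the mitosis to replication ratio was 1.86, and 1.68 without Mki67, Top2a and Ccna2, 1.66 without the most abundant gene of each set, and 1.77 to 1.95 with a section left out. In endothelium-rich spots, of 11 replication genes 1 was higher with the highest 10% of spots and with at least 5000 UMIs. Likewise 1 was higher without fat- or urothelium-rich spots and with each list gene scaled to its mean, and 8 with library totals. Of 26 mitosis genes 5 were higher without fat-rich spots and 13 with library totals. Of all genes, 3543 of 15529 were higher with the highest 10%, 4157 of 15224 with at least 5000 UMIs and 4120 of 15317 with scaled genes. Without fat-rich spots 4098 of 15044 were higher, and with library totals 7650 of 15317. The mitosis counts thus lay near or below the shares of all genes. Scaling each list gene, chosen after seeing the data, left 17 mitosis genes lower in S1 and S2-rich spots, beside 4379 of 15023 genes. That scaling turned Ccnd1 there to 0.079. Library totals turned Tyms in S1 and S2-rich spots to -0.21 and Stmn1 in endothelium-rich spots to 0.021. Mean correlations over both Uox_KO sections moved to 0.33 (replication with injured tubule) and 0.42 (replication with stroma) with at least 5000 UMIs, and without fat-rich spots to 0.29 (replication with injured tubule), 0.32 (mitosis with injured tubule), -0.38 (replication with S1 and S2) and -0.36 (mitosis with S1 and S2). Thinned to 2000 UMIs, a replication UMI was found in 18.5% of Control and 28.5% of Uox_KO spots and a mitosis UMI in 4.39% and 20.7%. Sections with the same number deviated together only weakly (r 0.12 over 16369 genes) and share only a number. With that replicate block 5739 genes were higher and 5377 lower. Depth limits genes such as Bub1, with 6 and 11 UMIs in Control, and 2 sections a group limit every comparison.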

Other observations

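The low mitosis level of the Control sections varied with several cell type lists, of tubule and of other cells. In plain CPM, the summed mitosis level in the 25% of Control spots richest in distal convoluted and connecting tubule genes against the other spots was 26.9 against 18.6 in the first section and 28.6 against 19.3 in the second. By intercalated cell genes it was 29.5 against 18 in the first section and 28.8 against 19.3 in the second, and by injured tubule genes 30.3 against 18 in the first section and 30.8 against 18.8 in the second. By S3 proximal tubule genes it ran the other way, at 15.6 against 22.6 in the first section and 17.5 against 23.2 in the second. By stroma and matrix genes it was 27.6 against 18.6 in the first section and 29.7 against 19.3 in the second, by smooth muscle and pericyte genes 26.4 against 18.9 in the first section and 30.4 against 19.1 in the second, and by myeloid genes 27.3 against 18.6 in the first section and 27.0 against 19.9 in the second. Their part in the tubule values was not tested. In Control the injured tubule list is only a set of markers, and whether its richest spots held damaged tubule was not tested. In Uox_KO, Spp1 and Clu gave 90.2% and 90.5% of the UMIs of that list, and their share in Control is not given. How far its richest spots are those of the distal tubule lists was not tested either. The cytokinesis motor gene Kif23 had 2.97 against 1.21 in the first section and 4.76 against 1.14 in the second by collecting duct principal cell genes, and 3.27 against 1.10 in the first section and 3.67 against 1.45 in the second by distal tubule genes. By S1 and S2 genes it had 0.701 against 1.88 in the first section and 0.945 against 2.31 in the second. Ccnd1, for cyclin D1, was 115 against 57.3 in the first section and 114 against 62.6 in the second by injured tubule genes. By S3 genes it was 32.8 against 84.9 in the first section and 37.8 against 89.6 in the second. Both Control sections lay on the same side in each of these. They are descriptions with no test, and Kif23 and Ccnd1 were picked after their values were seen.

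Tk1 in Control spots rich in myeloid genes against the others was 6.24 against 6.19 plain CPM in the first section and 5.31 against 6.39 in the second. The Control sections thus did not share a direction. In the Uox_KO sections it was 12.1 against 6.48 and 13.6 against 5.26 plain CPM. Summed myeloid markers were 135 and 123 CPM in Control and 1519 and 1259.5 CPM in Uox_KO, so the rich spots of the genotypes need not be alike. Many such pairs of gene and list were computed, and this is a description with no test.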
